A study of Mus musculus with 10 samples.

Results

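The genes described here are 38 genes of homologous recombination, the Fanconi anaemia pathway and the DNA damage checkpoint, chosen by name. The 38 include the meiotic recombination genes Mnd1, Psmc3ip and Dmc1. Of the 38, 36 had a microarray probe set assigned to their symbol alone, and all 36 passed the filter on low values, out of 17204 genes tested. Rbbp8 and Xrcc2 had no such probe set in the annotation used and were not analysed here. Expression was measured on 10 Affymetrix mouse genome arrays, one for each sample of sorted splenic B cells on the Balb/c background. The 4 naive samples came from unimmunized Balb/c mice, for which the labels name no transgene. The other 6 were germinal centre (GC) B cells, 3 from each of 2 lines in which the endogenous JH locus is deleted and an immunoglobulin heavy chain transgene is carried instead, VH186.2 in B1-8 mice and V23 in V23 mice. These mice received 50 µg of the hapten-carrier NP-CGG in alum intraperitoneally, and λ+ PNA+ B220+ spleen cells were sorted 14 days later. GC and naive samples therefore differ in immunization, transgene, JH deletion and sort at once, and these cannot be told apart. Neither the animals behind each sample nor pooling is named, so p-values may measure only the spread between samples.

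Homologous recombination repairs a double-strand break by copying an intact sister strand: the ends are cut back, BRCA proteins prepare the exposed strand for pairing, and helicases and nucleases take apart the joined molecules. The Fanconi anaemia proteins form a core complex that attaches ubiquitin to the FANCD2 and FANCI pair when a replication fork meets a crosslink. GC B cells are known for fast division and for mutating and switching their antibody genes, and both are sources of DNA breaks.

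Levels are log2 probe set signals, and differences are log2 differences with their standard error from 1 limma model over the 10 arrays. Adjusted p-values are Benjamini-Hochberg values over all 17204 genes, with 0.05 as the threshold for a call. Signals below log2 4 carry little order. Mnd1 and Bard1, below log2 4 on all 4 naive arrays, passed the filter (above log2 4 on at least 3 arrays) only through their GC arrays. Their calls are therefore not independent of the filter. The sort was checked on markers. Of 8 GC B cell markers tested 5 were called higher and 1 lower, and of 7 naive B cell markers 6 were called lower and 0 higher, for the mean of both GC groups by limma. The GC regulator Bcl6 rose by 1.11 and S1pr2, which encodes a receptor that keeps cells in the follicle centre, by 3.89, while Ccr7, a homing receptor of naive cells, fell by 4.71. The B cell genes Cd79a and Ms4a1 lay between 13.28 and 14.35 in the means of all 3 groups, with Cd79a called lower in GC samples (−0.40, adjusted p = 0.0318). Both genes stand in both marker lists, so the lower call of Cd79a was counted in each. The GC marker Rgs13 was at −0.05 (adjusted p = 0.623). Markers of neutrophils were also higher in GC samples in 9 of 9 cases (list mean 7.55 to 9.57 on naive and 10.91 to 11.60 on GC arrays), with no marker below log2 4 on all arrays. Of the T cell, macrophage, NK cell, erythroid and plasma cell markers tested, 0 of 7, 1 of 7, 0 of 5, 0 of 5 and 2 of 6 were called higher. In the same order 2, 2, 3, 2 and 1 were called lower in GC samples. Over all genes 20.5% were called higher and 21% lower. The part of RNA from neutrophils or from these other cell types in the results below was not tested.

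Most of the recombination genes were higher in GC B cells, in both lines, while the kinases Atm and Atr and the factors Rmi1 and Rad52 were called lower. The calls of Atm and Rad52 ended under some other settings, given below, as did the higher calls of Rad50, Fancl, Slx4 and Topbp1. Against naive cells, GC B1-8 cells had 25 of 36 members called higher and 4 lower, where 16.4% of all tested genes were called higher and 17.3% lower. GC V23 cells also had 25 called higher and 4 lower, with 18.2% and 19.7% of all genes. For the mean of both GC groups the counts were 26 higher (72.2% of the members, 20.5% of all genes) and 4 lower (11.1% of the members, 21% of all genes), or 30 in either direction (41.5% of all genes). The median member difference was 0.76 in B1-8 and 0.88 in V23, beside 0.05 and 0.06 over all genes. In 26 members every GC array lay above every naive array, and in 3 every GC array lay below (17% and 18.5% of all genes). In bulk samples, more cells that express a gene and more RNA in each cell cannot be told apart.

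**Figure D1:**
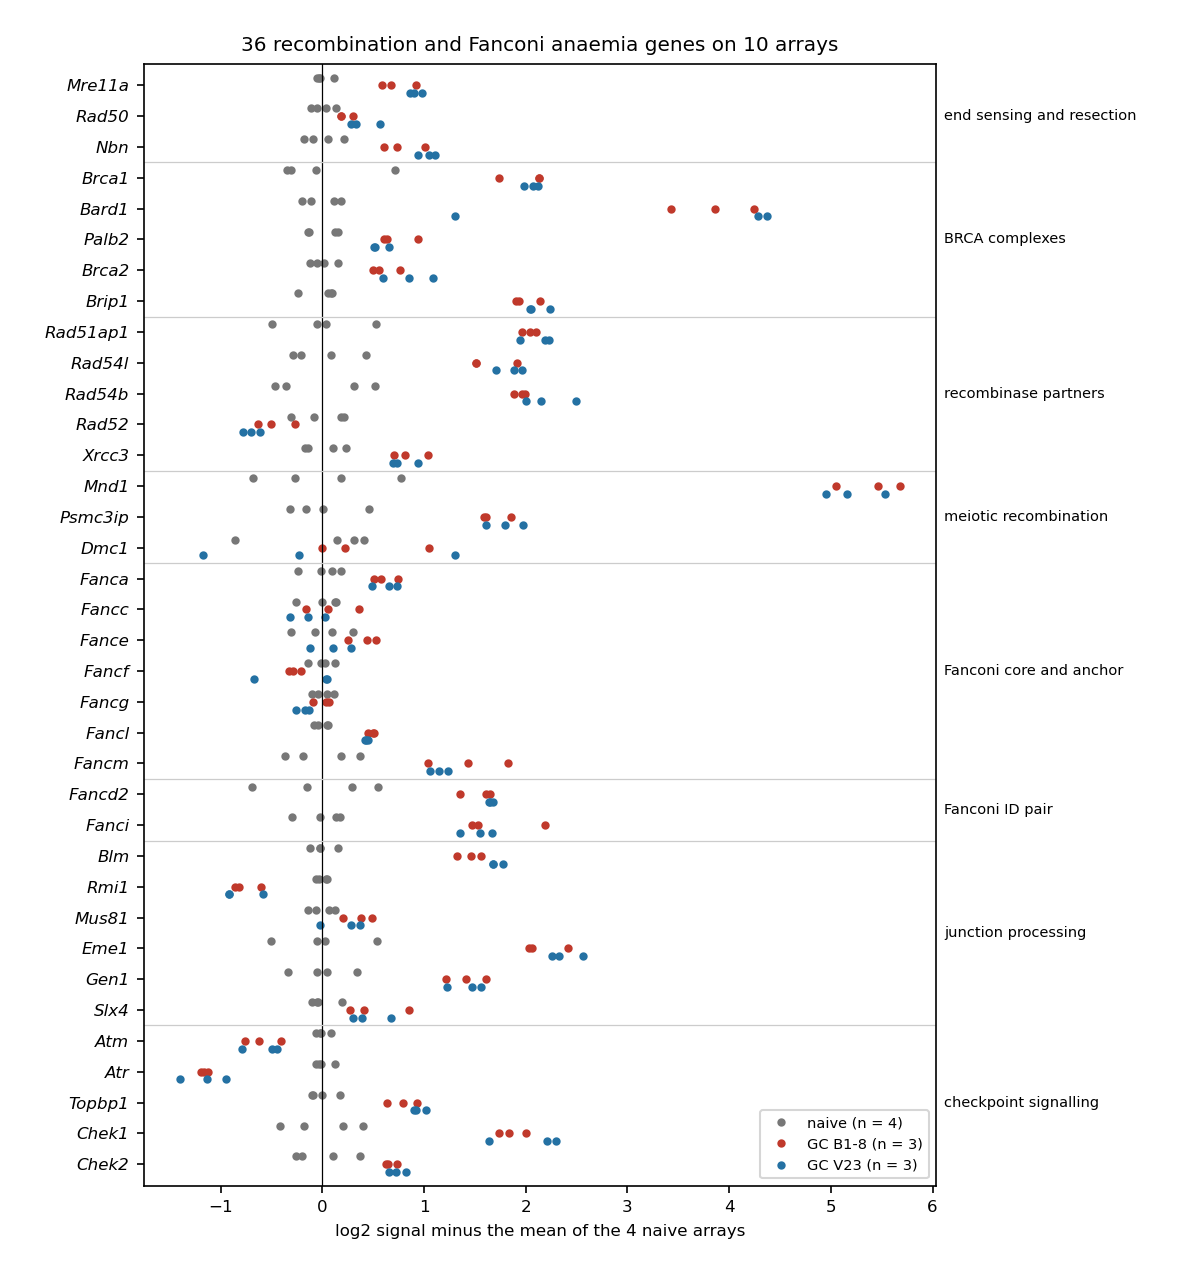
Log2 signal of each of the 36 measured genes on the 10 arrays, with the mean of the 4 naive arrays subtracted; grey points are naive, red GC B1-8 and blue GC V23 arrays, and genes are ordered by role. Mnd1 and Bard1 lie farthest to the right, with 1 V23 array of Bard1 apart from the others, and Rmi1, Atm and Atr lie to the left on all 6 GC arrays.

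The size of the rise ran from 0.30 for Rad50 to 3.73 for Mnd1 with values raised to log2 4 (fitted value 5.31). All naive signals of Mnd1 lay below that level. Rises of over 2-fold were called in 15 members (7.02% of all genes). All 36 members were set beside separate lists of cell division genes. Of 27 DNA replication genes 26 were called higher for the mean of both GC groups, with a median of 1.80, and 19 of 19 mitosis genes were, with a median of 3.08. The median of the 36 recombination genes, the 4 that fell and the 6 not called included, was 0.82. Naive replicate 2 was the highest naive array for 20 of the 24 members that rose in both lines, and for 25 of the 26 replication genes that did. The mean of those 24 members was 8.09 on naive replicate 2 and 7.60 to 7.78 on the others, against 9.30 to 9.57 on GC arrays. The mean of the 8 GC B cell markers was also highest among naive arrays on replicate 2. It was 11.30 there and 10.20 to 10.81 on the other naive arrays, against 12.52 to 12.64 on GC arrays. What part the share of dividing cells, or of GC B cells in naive samples, has in the members' differences was not tested. Without naive replicates 2 and 4, the latter the highest in neutrophil markers, 24 members were called higher and 3 lower. Of all 17204 genes, 3108 were then called higher and 2791 lower, beside 3521 and 3619 with all 10 arrays.

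**Figure D2:**
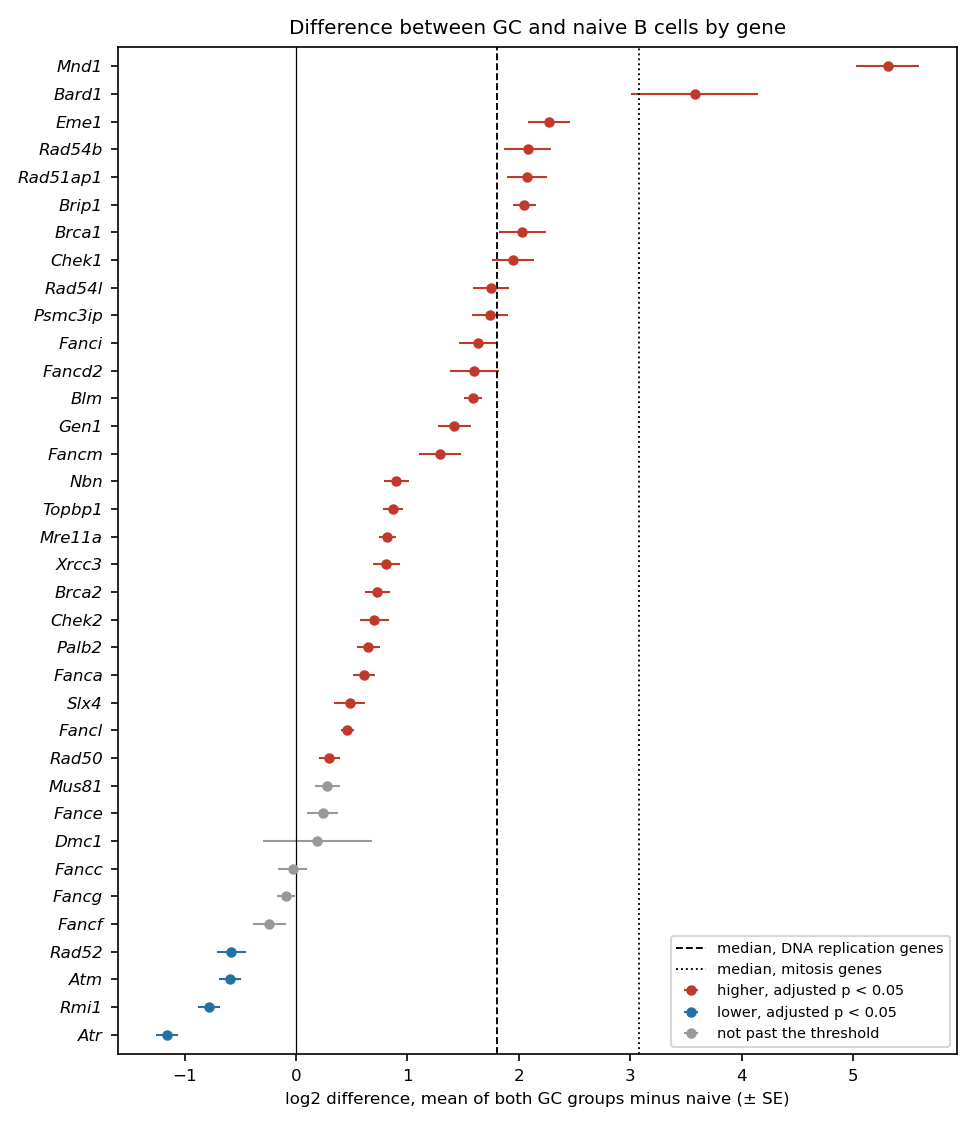
Log2 difference between the mean of both GC groups and naive cells for each gene, with its standard error; red genes were called higher, blue lower, and grey did not pass the threshold. The dashed line is the median of 27 DNA replication genes (1.80) and the dotted line that of 19 mitosis genes (3.08), and most members lie to the left of both.

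**Figure D3:**
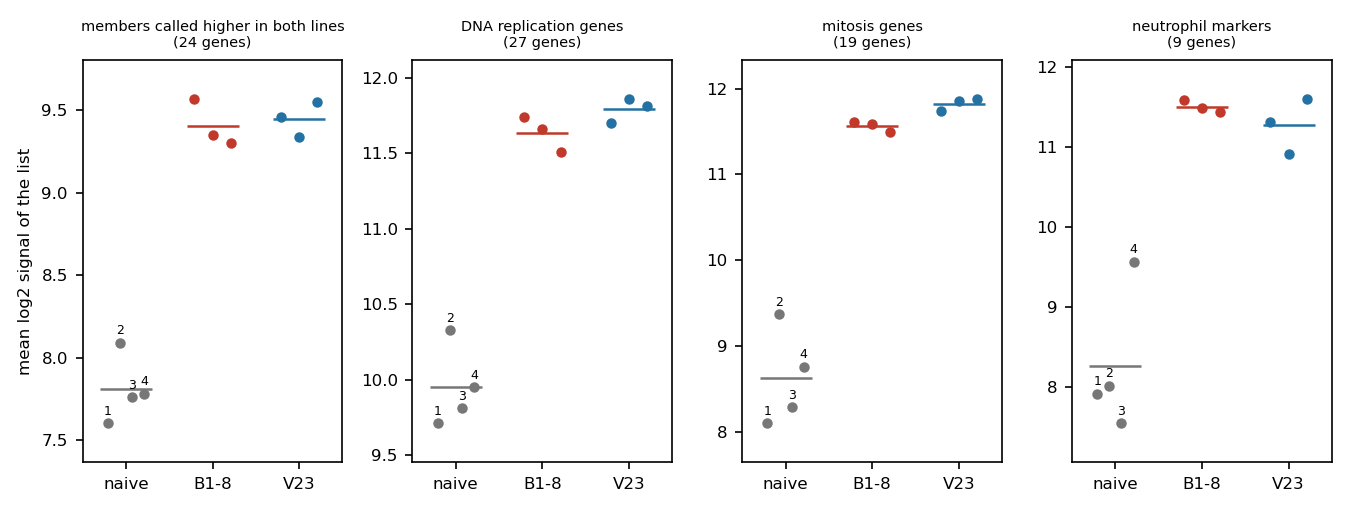
Mean log2 signal per array of the 24 members called higher in both lines, of 27 DNA replication genes, of 19 mitosis genes and of 9 neutrophil markers; each point is an array, lines are group means, and digits give the naive replicate. Naive replicate 2 is the highest naive array in the first 3 lists and naive replicate 4 in the last, and both stay below all GC arrays.

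Because 26 of the 36 members rose, the members' promoters were read for the sites of factors that act on dividing cells. RefSeq windows (build GRCm38.p6) were found for 32 of the 38 members, and the 250 bases before each start were searched on both strands for TTTCCCGC, TTTGGCGC and TTTCGCGC, forms of the site of E2F factors, for the CCAAT box, and for TTTGAA and TTCGAA, forms of the cell cycle element CHR. An E2F form was found in 5 of 32 members (15.6%), Bard1, Brca2, Chek2, Fancg and Topbp1, and in 1.78% of 27025 genes with a window, which include noncoding genes. CCAAT stood in 53.1% of the members and 37.5% of all genes, and a CHR form in 6.25% and 19.6%. Of the 22 members with a window that were called higher, 4 held an E2F form. Of the 4 called lower, 0 did. Shown here are the windows of the strongest riser (Mnd1), of 2 risers with an E2F form (Bard1 and Brca2), of a gene with that form that did not pass the test (Fancg), and of the member that fell most (Atr), with matches in capitals.
Mnd1: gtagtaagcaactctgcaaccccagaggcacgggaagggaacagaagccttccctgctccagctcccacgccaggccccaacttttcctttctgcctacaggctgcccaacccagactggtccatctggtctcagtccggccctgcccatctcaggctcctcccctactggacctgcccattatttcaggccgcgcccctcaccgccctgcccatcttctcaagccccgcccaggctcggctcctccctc
Bard1: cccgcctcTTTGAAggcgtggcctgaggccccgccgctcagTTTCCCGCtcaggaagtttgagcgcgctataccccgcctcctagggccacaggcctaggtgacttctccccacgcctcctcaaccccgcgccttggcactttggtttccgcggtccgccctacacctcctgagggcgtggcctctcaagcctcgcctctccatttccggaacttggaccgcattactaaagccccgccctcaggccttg
Brca2: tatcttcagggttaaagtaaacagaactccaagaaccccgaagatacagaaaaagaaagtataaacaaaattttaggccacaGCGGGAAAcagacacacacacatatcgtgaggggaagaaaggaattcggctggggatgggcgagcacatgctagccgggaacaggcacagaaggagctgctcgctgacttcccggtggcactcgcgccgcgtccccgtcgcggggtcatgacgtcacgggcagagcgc
Fancg: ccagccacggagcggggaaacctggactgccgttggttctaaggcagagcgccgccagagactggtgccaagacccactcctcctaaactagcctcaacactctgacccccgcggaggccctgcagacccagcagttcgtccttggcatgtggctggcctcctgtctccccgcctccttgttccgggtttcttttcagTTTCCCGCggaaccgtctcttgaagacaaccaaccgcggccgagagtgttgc
Atr: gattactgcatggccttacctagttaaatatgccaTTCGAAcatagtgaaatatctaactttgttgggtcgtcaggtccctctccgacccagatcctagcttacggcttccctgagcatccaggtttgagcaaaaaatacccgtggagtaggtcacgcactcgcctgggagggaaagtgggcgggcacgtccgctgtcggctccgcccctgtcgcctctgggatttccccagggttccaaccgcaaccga
They lie at chr3:84155787-84156036 (minus strand), chr1:71102973-71103222 (minus), chr5:150522371-150522620 (plus), chr4:43010302-43010551 (minus) and chr9:95857347-95857596 (plus). Bard1 holds TTTCCCGC and, nearer its upstream end, TTTGAA. Fancg holds TTTCCCGC and Brca2 its reverse complement, GCGGGAAA. Atr holds TTCGAA, and Mnd1 holds none of the letters searched. A match describes letters only, and no binding was measured.

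End sensing and resection begin the pathway. Of its 3 measured genes all 3 rose, by 0.30 to 0.90. Nbn (1448746_at), which encodes the NBS1 subunit that brings the break-sensing complex to DNA ends, read 8.38, 8.47, 8.62 and 8.77 on naive, 9.57, 9.29 and 9.17 on B1-8 and 9.50, 9.61 and 9.67 on V23 arrays. Mre11a (1416748_a_at), the nuclease of the same complex, read 9.27, 9.41, 9.28 and 9.25 on naive, 10.22, 9.97 and 9.89 on B1-8 and 10.16, 10.28 and 10.20 on V23 arrays. Every GC array lay above every naive array for both genes. Nbn rose by 0.90 ± 0.11 (adjusted p = 0.00024) and Mre11a by 0.82 ± 0.08 (adjusted p = 8.95e-05). A second Mre11a probe set was at 0.13, and the mean of the pair did not pass in V23 (0.44, adjusted p = 0.0557). Rad50, the ATPase that holds the complex together, was at 0.22 ± 0.10 in B1-8 (adjusted p = 0.154) and rose by 0.39 ± 0.10 in V23 (adjusted p = 0.0172); the lines' difference did not pass (adjusted p = 0.77). The call in V23 ended without V23 replicate 3 (0.30, adjusted p = 0.0614), and that for both groups when its probe sets were averaged (adjusted p = 0.054), and without naive replicate 3 (0.0659), replicate 4 (0.0614) or replicates 2 and 4 (0.135).

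All 5 BRCA complex genes rose in both lines. Bard1 (1420594_at), the partner that BRCA1 needs as a ubiquitin ligase, read 2.89, 2.82, 2.60 and 2.51 on naive, 6.95, 6.57 and 6.14 on B1-8 and 7.08, 4.01 and 6.99 on V23 arrays. All naive values were below log2 4, and V23 replicate 2 stood near that level while the other 5 GC arrays lay above 6. Bard1 rose by 2.29 with values raised to log2 4, or 4.89-fold, and the fitted value was 3.58 ± 0.57 (adjusted p = 0.00102). Without V23 replicate 2 the fitted value was 4.09 ± 0.18. Brip1 (1458427_at), a helicase that binds BRCA1 and is also a Fanconi gene, read 6.32, 6.65, 6.62 and 6.64 on naive, 8.70, 8.46 and 8.49 on B1-8 and 8.60, 8.61 and 8.80 on V23 arrays. The arrays of each group were close, and the rise of 2.05 ± 0.10 (adjusted p = 2.6e-06) was 4.14-fold. Brca1, the scaffold that directs breaks to recombination, rose by 2.03 ± 0.21 (adjusted p = 8.95e-05). Its other probe sets were at 1.78, 2.55 and −0.01. Brca2, a mediator of strand exchange, rose by 0.73 ± 0.11, and Palb2, which joins BRCA2 to BRCA1, by 0.65 ± 0.10, both under 2-fold.

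Among the strand exchange factors 4 of 5 measured genes rose and Rad52 fell. Rad54b (1434734_at), a motor protein that helps strand exchange, read 5.35, 6.34, 6.13 and 5.46 on naive, 7.81, 7.70 and 7.78 on B1-8 and 7.82, 7.97 and 8.31 on V23 arrays. Rad51ap1 (1417938_at), which stimulates strand exchange, read 7.88, 8.91, 8.33 and 8.42 on naive, 10.48, 10.42 and 10.34 on B1-8 and 10.32, 10.61 and 10.57 on V23 arrays. GC and naive arrays did not overlap for either gene, and in both the naive arrays were more spread than the GC arrays. Rad54b rose by 2.08 ± 0.21 (adjusted p = 8.27e-05) and Rad51ap1 by 2.07 ± 0.18 (adjusted p = 3.3e-05). All 3 other Rad51ap1 probe sets were also higher in GC cells, by 1.47, 2.40 and 5.53, the last from a naive mean of 2.23, below log2 4. Rad54l, the second motor of this kind, rose by 1.75 ± 0.16, and Xrcc3, which acts in the same step, by 0.81 ± 0.12.

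Rad52 (1416602_a_at), which anneals single strands, read 8.82, 9.11, 8.59 and 9.08 on naive, 8.63, 8.27 and 8.39 on B1-8 and 8.29, 8.12 and 8.20 on V23 arrays. B1-8 replicate 1 lay just above the lowest naive array, so the groups overlapped. Rad52 was at −0.47 ± 0.15 in B1-8 (adjusted p = 0.0414), at −0.70 ± 0.15 in V23 (adjusted p = 0.0061) and at −0.58 ± 0.13 for both (adjusted p = 0.00576). A second probe set, not tested, was at −2.0 with no overlap. The call for both groups ended with quantile normalization (−0.31, adjusted p = 0.0822) and without naive replicates 2 and 4 (−0.39, adjusted p = 0.0649), and that for V23 with quantile normalization. The call for B1-8 ended under 13 of 21 alternatives, among them leaving out any single array other than B1-8 replicate 1 and naive replicate 3.

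The meiotic genes gave the largest rise and also a gene with no call. Mnd1 (1452606_at) and Psmc3ip encode a pair of proteins that bind each other and help homologous chromosomes pair in germ cells. Mnd1 read 1.74, 3.19, 2.60 and 2.15 on naive, 8.10, 7.47 and 7.88 on B1-8 and 7.58, 7.95 and 7.37 on V23 arrays. All 4 naive values were below log2 4, in the range where order means little, and all 6 GC values were above 7. With values raised to log2 4 Mnd1 rose by 3.82 in B1-8 (14.1-fold) and 3.63 in V23 (12.4-fold). For the mean of both groups the rise was 13.2-fold in this way, and the fitted rise was 5.31 ± 0.28 (adjusted p = 3.7e-06). Log2 4 was a chosen level and not a measured background, so the raised values depend on it. Psmc3ip (1442058_s_at) read 7.70, 8.15, 7.37 and 7.53 on naive, 9.54, 9.28 and 9.30 on B1-8 and 9.30, 9.66 and 9.49 on V23 arrays. Psmc3ip thus lay above log2 4 on all naive arrays and rose by 1.74 ± 0.16 (adjusted p = 4.43e-05), and its second probe set was at 1.63.

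Dmc1 (1420335_at), the meiotic recombinase that the pair assists in germ cells, read 6.43, 6.16, 5.16 and 6.33 on naive, 6.24, 7.07 and 6.02 on B1-8 and 7.32, 4.85 and 5.79 on V23 arrays. The 3 groups overlapped, and the V23 arrays alone spanned the whole range. Dmc1 was at 0.19 ± 0.49 (adjusted p = 0.789), an uncertain value that changed sign with the settings in V23. Among 20 other meiotic genes tested, 3 were called higher (15%) and 3 lower (15%), beside 20.5% and 21% of all genes. Syce2, of the synaptonemal complex that zips chromosomes in meiosis, rose by 1.71 ± 0.11 (adjusted p = 7.43e-06), Rec114 by 1.40 ± 0.37 (1 array below log2 4) and Tex15 by 0.81 ± 0.22. Spo11, the enzyme that makes meiotic breaks, fell by 0.64, as did Msh5, and Prdm9, which sites those breaks, fell by 1.87, also with 1 array below log2 4.

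Of the 7 Fanconi core and anchor genes, 3 rose, 0 fell by limma, and 4 did not pass the test. At an unadjusted p under 0.05, 3 passed. Fancm (1447935_at), the motor protein that anchors the core complex to DNA, read 6.82, 7.56, 7.37 and 7.0 on naive, 9.02, 8.62 and 8.23 on B1-8 and 8.25, 8.43 and 8.34 on V23 arrays. Fanca (1418856_a_at), a large core subunit, read 9.05, 9.24, 8.82 and 9.15 on naive, 9.80, 9.57 and 9.64 on B1-8 and 9.72, 9.55 and 9.79 on V23 arrays. Neither gene had overlap between GC and naive arrays. Fancm rose by 1.29 ± 0.19 (adjusted p = 0.000663) and Fanca by 0.61 ± 0.10 (adjusted p = 0.0015), though the mean of its probe sets did not pass in V23 (1.16, adjusted p = 0.101). The other Fanca probe set was also higher in GC cells, at 2.06. Its naive mean was 3.72, below log2 4, and its SD was 1.34 on naive and 2.26 on V23 arrays. Fancl, the ubiquitin ligase of the core, rose by 0.46 ± 0.06 with the least spread of any member (pooled SD 0.05), but its other probe set was at −1.20, and the mean of the pair was at −0.37.

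The other core subunits, Fancc, Fance, Fancf and Fancg, had GC and naive arrays that overlapped. Fancc (1442265_at) read 7.74, 7.35, 7.61 and 7.73 on naive, 7.97, 7.45 and 7.67 on B1-8 and 7.29, 7.47 and 7.64 on V23 arrays. Fance (1424197_s_at), which contacts FANCD2, read 7.35, 7.11, 7.51 and 7.72 on naive, 7.67, 7.95 and 7.86 on B1-8 and 7.30, 7.70 and 7.52 on V23 arrays. Their differences were −0.03 ± 0.13 (adjusted p = 0.895) and 0.24 ± 0.14 (adjusted p = 0.201). Probe sets of Fancc disagreed: one that was not used, at a lower signal, was at 2.05 with every GC array above every naive array, and another at −0.48. Fancf (1435834_at), an adaptor within the core, read 8.85, 8.72, 8.89 and 8.98 on naive, 8.65, 8.53 and 8.57 on B1-8 and 8.19, 8.90 and 8.91 on V23 arrays. Fancg (1450059_at) read 9.32, 9.47, 9.53 and 9.38 on naive, 9.46, 9.33 and 9.49 on B1-8 and 9.29, 9.25 and 9.16 on V23 arrays. All B1-8 arrays and V23 replicate 1 of Fancf lay below the naive range, as did all V23 arrays of Fancg, which stayed within a narrow band. Fancf was at −0.24 ± 0.15 (adjusted p = 0.241) and Fancg at −0.09 ± 0.08 (adjusted p = 0.361). Their other probe sets, not tested, were at 0.51 and −0.49 for Fancf and at 0.05 for Fancg. A p above the threshold does not show that these genes were alike in GC and naive cells. With quantile normalization Fance passed for both groups (0.47, adjusted p = 0.016). In B1-8, Fance passed with quantile normalization (0.59, adjusted p = 0.0147), with centring (0.47, adjusted p = 0.0399) and without naive replicate 4 (0.50, adjusted p = 0.0415). Fancc passed there when its probe sets were averaged (0.47, adjusted p = 0.0413), and Fancf without V23 replicate 1 (−0.28, adjusted p = 0.047).

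Both genes of the pair that the core modifies rose. Fanci (1427953_at) read 7.62, 7.34, 7.81 and 7.77 on naive, 9.83, 9.11 and 9.17 on B1-8 and 9.19, 8.99 and 9.31 on V23 arrays. Fancd2 (1439091_at) read 6.41, 7.65, 6.95 and 7.39 on naive, 8.45, 8.71 and 8.75 on B1-8 and 8.78, 8.75 and 8.74 on V23 arrays. Naive replicate 1 was lowest and replicate 2 highest for Fancd2, and all GC arrays lay above them. Fanci rose by 1.63 ± 0.17 (adjusted p = 8.42e-05) and Fancd2 by 1.60 ± 0.22 (adjusted p = 0.000486). The 2 proteins work as a clamp on DNA, and their fitted rises of 3.1-fold and 3.03-fold were close. Of 3 other Fancd2 probe sets one was at 1.88 and 2 were near 0, at 0.02 and 0.15.

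Genes that process joined molecules went both ways, with 4 of 6 higher and Rmi1 lower. Eme1 (1435054_at), the partner of the MUS81 nuclease, read 6.85, 7.44, 6.39 and 6.93 on naive, 9.32, 8.96 and 8.93 on B1-8 and 9.23, 9.16 and 9.46 on V23 arrays. Blm (1448953_at), the helicase that undoes double junctions, read 8.58, 8.85, 8.68 and 8.68 on naive, 10.26, 10.16 and 10.02 on B1-8 and 10.48, 10.38 and 10.38 on V23 arrays. Every GC array lay above every naive array for both. Eme1 rose by 2.27 ± 0.19 (adjusted p = 3.04e-05) and Blm by 1.59 ± 0.08 (adjusted p = 3.43e-06). Gen1, a junction-cutting nuclease, rose by 1.42 ± 0.15. Slx4, a scaffold for nucleases, rose by 0.48 ± 0.14 (adjusted p = 0.0198), a call that ended without naive replicate 1 (adjusted p = 0.0581), replicate 3 (0.0537) or replicates 2 and 4 (0.0574).

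Mus81 (1450432_s_at), the nuclease itself, read 8.56, 8.48, 8.69 and 8.74 on naive, 9.11, 9.0 and 8.82 on B1-8 and 8.90, 8.99 and 8.60 on V23 arrays. Only V23 replicate 3 fell within the naive range on this probe set. The other Mus81 probe set, not tested, had nearly the same mean signal over all arrays (8.78 against 8.79). It was at 0.81, with every GC array above every naive array. Mus81 was at 0.28 ± 0.11 (adjusted p = 0.0628), and it passed the test without V23 replicate 3 (0.34, adjusted p = 0.0244), when its probe sets were averaged (0.55, adjusted p = 0.00226) and with median centring (0.38, adjusted p = 0.0279), quantile normalization, array weights or the filter at log2 6. Rmi1 (1430805_s_at), which stabilises the complex of BLM with its topoisomerase, read 11.47, 11.58, 11.57 and 11.50 on naive, 10.71, 10.67 and 10.93 on B1-8 and 10.61, 10.61 and 10.95 on V23 arrays. All GC arrays lay below all naive arrays, and Rmi1 differed by −0.78 ± 0.10 (adjusted p = 0.000253). Of its 4 other probe sets 3 were lower, at −0.75, −0.93 and −1.11, and one was at 0.17. The value of −1.11 came from an _x_at probe set, a type whose probes may also match other transcripts. Blm and Rmi1, whose products act in 1 complex, thus moved in opposite directions.

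Of 5 checkpoint genes, Chek1, Chek2 and Topbp1 were called higher and Atr and Atm lower, and the calls of Atm and Topbp1 ended when their probe sets were averaged. Atr (1427197_at), the kinase activated by stalled forks, read 10.60, 10.42, 10.47 and 10.45 on naive, 9.32, 9.29 and 9.36 on B1-8 and 9.08, 9.35 and 9.53 on V23 arrays. Atm (1428830_at), the kinase activated by double-strand breaks, read 10.63, 10.59, 10.73 and 10.64 on naive, 10.24, 10.03 and 9.89 on B1-8 and 10.20, 9.86 and 10.15 on V23 arrays. Every GC array lay below every naive array for both kinases. Atr differed by −1.16 ± 0.10 (adjusted p = 2.71e-05), or 2.23-fold lower, and its other probe sets, not tested, were at −2.17 and −1.32. Atm differed by −0.59 ± 0.10 (adjusted p = 0.0015), but its other probe set was at 0.21, and the mean of the pair did not pass (−0.19, adjusted p = 0.143). Of 2 RNA quality controls, the Actb 3′ minus 5′ difference was 1.27 to 1.65 on naive, 0.81 to 1.19 on B1-8 and 0.71 to 0.87 on V23 arrays. That of Gapdh was 0.31 to 0.67, 0.11 to 0.41 and −0.03 to 0.18, so that naive and B1-8 arrays overlapped. Their part in the rises and falls of the members was not tested.

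Chek1 (1449708_s_at), the effector kinase that ATR switches on, read 8.02, 8.84, 8.26 and 8.64 on naive, 10.18, 10.44 and 10.28 on B1-8 and 10.08, 10.65 and 10.74 on V23 arrays. GC and naive arrays lay well apart, and Chek1 rose by 1.95 ± 0.19 (adjusted p = 7.08e-05), with 3 other probe sets past the filter at 1.79, 2.07 and 2.5. Chek2, the effector of ATM, rose by 0.70 ± 0.13 (adjusted p = 0.0024). Topbp1, which activates ATR at forks, rose by 0.87 ± 0.09 (adjusted p = 8.98e-05), but its second probe set was at −0.36, and the mean of the pair did not pass (0.26, adjusted p = 0.139).

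**Figure D4:**
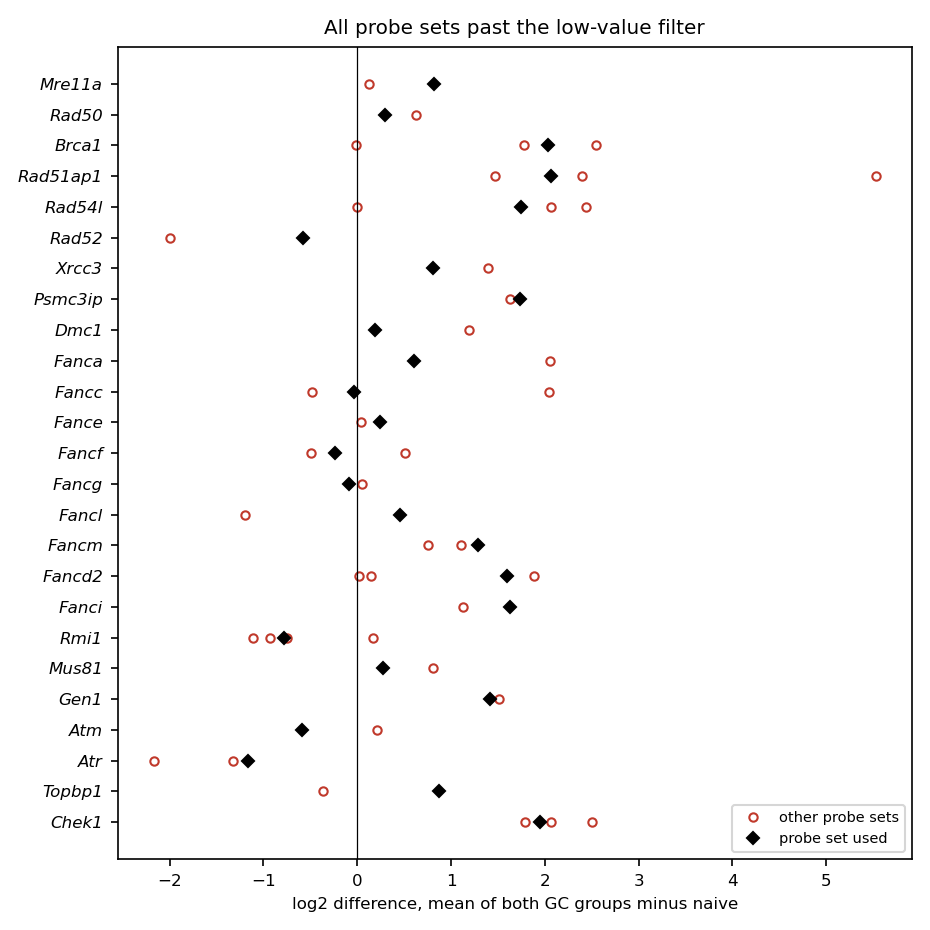
Log2 difference between the mean of both GC groups and naive cells for every probe set past the low-value filter, in the members with more than 1; filled diamonds are the probe sets used and open circles the others. Probe sets of Atr, Chek1 and Rad51ap1 share a side of 0, and those of Atm, Topbp1, Fancl, Rmi1, Brca1, Fancc, Fancf and Fancg do not.

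Of 25 members with more than 1 probe set, those that were called had 34 other probe sets past the filter, of which 29 had the sign of the one used. The 5 with the opposite sign belonged to 5 genes, Atm, Brca1, Fancl, Rmi1 and Topbp1. Some of these probe sets were near 0, where the sign means little. Among the 29 they were those of Rad54l (0.00, group means below log2 4), Fancd2 (0.02 and 0.15) and Mre11a (0.13). Among the 5 the nearest was that of Brca1 (−0.01).

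Other genes of the same pathways, which are not among the 38, were counted from lists. Of 39 other recombination and Fanconi genes tested, 23 were called higher (59%) and 5 lower (12.8%), with a median of 0.44. The shares of all genes were 20.5% higher and 21% lower. Rad51c, a strand exchange factor, rose by 2.77 ± 0.17, Fignl1, an ATPase of the recombination pathway, by 2.56 ± 0.16, and Exo1, a resection nuclease, by 2.22 ± 0.16. Wdr48, which activates the enzyme that removes ubiquitin from FANCD2, fell by 1.13, Rad51d by 0.51 and Rmi2, the partner of RMI1, by 1.62, with 3 of its arrays below log2 4. The value of Wdr48 came from an _x_at probe set, whose probes may also match other transcripts. Of 17 other checkpoint and break signalling genes, 7 were called higher (41.2%) and 2 lower (11.8%), beside the same shares of all genes. Clspn, the mediator between ATR and CHEK1, rose by 2.89 ± 0.27, Tipin of the fork protection complex by 2.27 ± 0.16, and H2ax, the histone phosphorylated at breaks, by 2.39 ± 0.19. Trp53bp1, which favours end joining over resection, fell by 0.46, and Rad9a, of the checkpoint clamp, by 0.49.

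The lines were then compared with each other, which sets GC B cells with the B1-8 transgene against those with V23. Of the 36 members 0 were called by limma in either direction, beside 0.0233% of all genes (0.00581% higher and 0.0174% lower in B1-8), and 1 had an unadjusted p under 0.05. The count was 0 under all 21 alternatives. Blm, with the smallest p, was at −0.27 ± 0.10 for B1-8 minus V23 (95% interval −0.51 to −0.03, unadjusted p = 0.0318, adjusted p = 0.61), and its B1-8 arrays lay below all its V23 arrays, as in 6.63% of all genes. The B1-8 arrays of Fancg lay above its V23 arrays, as did those of Fancl and as in 7.07% of all genes, and those of Rad54b lay below. Fancg was at 0.19 ± 0.10 (−0.02 to 0.41) and Fance at 0.32 ± 0.18 (−0.08 to 0.72), both with adjusted p-values above the threshold (0.688 and 0.723). In 34 members the 95% interval lay within 1 log2 unit of 0, so a 2-fold difference was outside it. For Bard1 (−1.12 to 2.18) and Dmc1 (−0.95 to 1.86) the interval reached past 1 unit, so a difference of that size lay within it. The members fitted higher in B1-8 numbered 16 and those fitted lower 20.

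**Figure D5:**
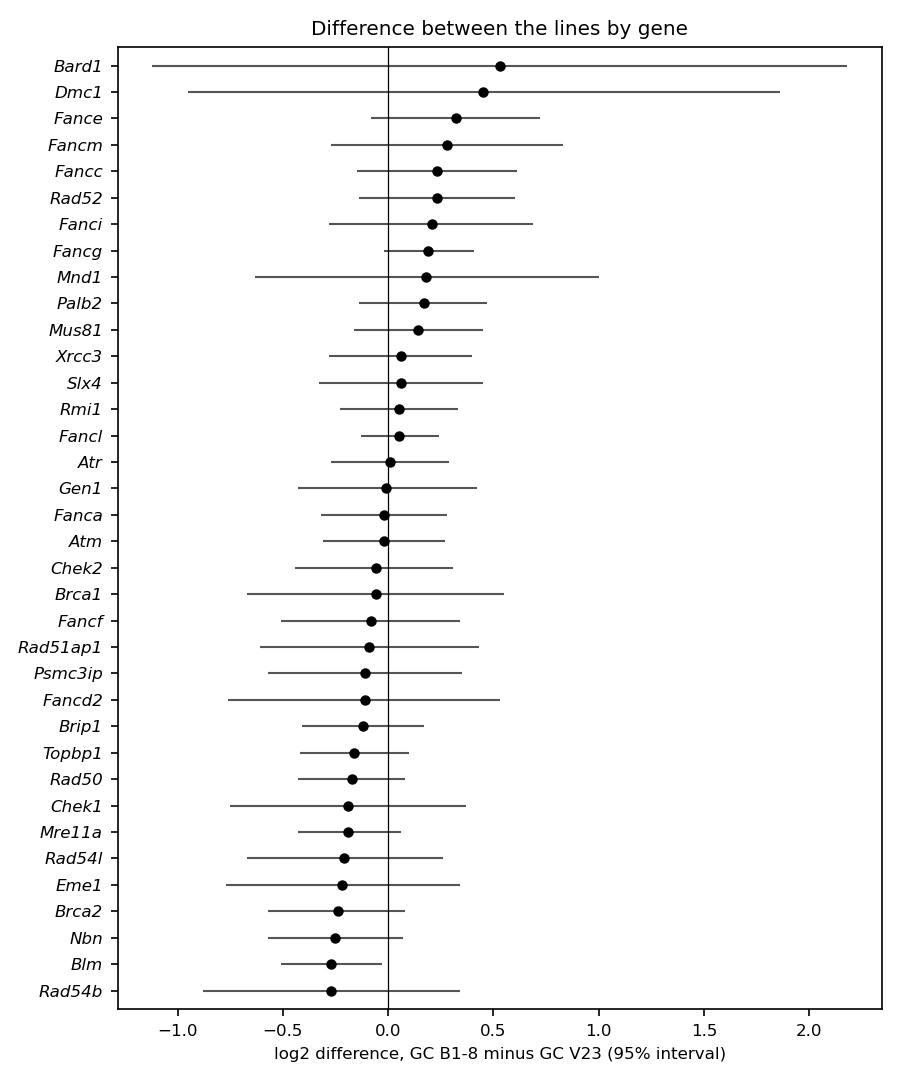
Log2 difference between GC B1-8 and GC V23 cells for each of the 36 genes, as a point with its 95% interval from the limma fit. The intervals cover 0 for all genes but Blm, whose adjusted p is 0.61, and are widest for Bard1 and Dmc1.

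Against naive cells the 2 lines share the same 4 naive arrays, so their values stand side by side only. Both lines had 24 members called higher (14.5% of all genes were) and 4 called lower (15.5%). Mnd1 was at 5.40 ± 0.33 in B1-8 and 5.21 ± 0.33 in V23, Eme1 at 2.16 ± 0.23 and 2.38 ± 0.23, and Atr at −1.15 ± 0.11 and −1.16 ± 0.11. Slx4 was called in B1-8 alone (0.51 ± 0.16, adjusted p = 0.0381; V23 0.45 ± 0.16, adjusted p = 0.0546) and Rad50 in V23 alone. The B1-8 call of Slx4 ended without B1-8 replicate 1 (0.34, adjusted p = 0.119), replicate 3 (0.0621), V23 replicate 3 (0.0529) or naive replicate 1 (0.0886), replicate 3 (0.0831) or replicate 4 (0.0741), and V23 passed without B1-8 replicate 1 (0.0243) or replicate 2 (0.0485). Neither gene differed between the lines by the test of that difference (adjusted p = 0.965 for Slx4), and 6 members, Dmc1, Fancc, Fance, Fancf, Fancg and Mus81, were called in neither line.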

How the data were processed

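Each array has 1 column of deposited log2 signals, a value for every probe set. The submitters' processing notes name GCRMA, without a version; the deposited log2 values do not have that form, since they have no floor and the mean of the unlogged signals, trimmed by 2% at each end, is 500 on every array, as for MAS5 signals scaled to a target. Their normalization therefore stays uncertain, and they were used as deposited. Of 45101 probe sets, 34958 carry 1 gene symbol. They cover 18194 genes, each represented by whichever of its own probe sets had the largest average across all 10 arrays. Genes above log2 4 on at least 3 arrays were tested, 17204 in all.

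Groups were compared with limma 3.58.1 in R 4.3.3 (3 group means over 10 arrays, empirical Bayes without trend, two-sided, Benjamini-Hochberg within each comparison). The script was tested on simulated data. Members, lists and rules were chosen with earlier results of these data known. Per-array values are given for the 2 members of each role group that differ most, for members not called or called lower, and for the 3 with the smallest p between lines; from each list of other pathway genes up to 3 per direction with the smallest p are named. Arrays give no counts, and their number and the signal limit the precision. Alternatives covered filter, probe set choice, normalization, a floor at log2 4, moderation, array weights, the groups in the fit, the replicate block, and arrays left out.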

Additional observations from a re-analysis of the deposited data

Results flagged for a closer look

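In the naive group, where 4 arrays allow an outlying value to be sought, 1 of the 36 members had an array apart from the rest. Brip1 on naive replicate 1 was at 6.32, while the other naive arrays lay between 6.62 and 6.65. Chance gives such a gap in about 1 in 20 groups. The low value is small beside the rise of 2.05 ± 0.10 in GC cells.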

How the results depend on the processing

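The count of called members stayed within 1.5 times its value under all 21 alternatives for each line (27 to 30 in B1-8, 25 to 30 in V23) and under 20 for both GC groups (27 to 31); with each array left out in turn it was 27 to 29, 28 to 30 and 28 to 31. Same-numbered arrays of different groups correlated at −0.0188 to 0.072 in their deviations from group means, so the numbers were not taken as pairs; with the replicate block the counts were 27, 28 and 28, and the calls of Rad50 (adjusted p = 0.103) and Slx4 (0.0658) for both groups ended. The median member difference was 0.65 to 0.83, 0.85 to 0.92 and 0.77 to 0.86 without single arrays (B1-8, V23, both), and −0.10 to 0.02 between the lines. Quantile normalization moved it to 0.90 in B1-8 and 1.03 in V23. Centring moved the median of all genes in both GC groups from 0.06 to 0.16. Of 30 called members, 24 kept direction and call under every alternative, and Rad50, Rad52, Fancl, Slx4, Atm and Topbp1 did not. Fancl changed sign with the mean of its probe sets, at −0.70 in B1-8, −0.04 in V23 and −0.37 for both. The other sign changes were in members that had not been called. Dmc1 in V23 was at 0.83 when its probe sets were averaged, 0.10 with centring, 0.02 with quantile normalization, 0.07 with the replicate block, and 0.19 when naive replicates 2 and 4 were both left out. Fancc was at 0.56 in V23 and 0.51 for both when averaged in this way, 0.14 and 0.21 with quantile normalization, and for both at 0.07 with centring and 0.01 with the replicate block. Fancf was at 0.01 in B1-8 with the mean of its probe sets, and at 0.09 in V23 and 0.02 for both with quantile normalization. Fancg was at 0.01 and 0.09 there. Without single arrays, Dmc1 ran from −0.70 to 0.53 in V23 and −0.14 to 0.48 for both, Fancc from −0.05 to 0.21 in B1-8 and −0.11 to 0.03 for both, Fance from −0.02 to 0.18 in V23 and Fancf from −0.32 to 0.04 in V23. The causes were not tested, beyond the disagreement of probe sets. Mnd1 and Bard1 lay below log2 4 on all naive arrays, so the size of their rises is uncertain and depends on the level chosen as floor.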
